A study of Homo sapiens with 6 samples.

Results

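The human ZNF genes of chromosome 19 were followed in BE(2)-C cells given 10 µM NCT-503 for 2 days and in BE(2)-C cells given the vehicle DMSO for 2 days. BE(2)-C is an established line from a human neuroblastoma, a childhood tumour of the sympathetic nervous system. NCT-503 is an inhibitor of PHGDH (phosphoglycerate dehydrogenase), which makes serine precursors out of a glycolytic intermediate. Genes were taken as members when the array's annotation gave a symbol of ZNF followed by a digit and the RefSeq table of assembly GRCh38.p14 listed the gene as protein-coding on chromosome 19. This gave 225 of the 14779 genes tested, out of 246 such genes in the RefSeq table. Total RNA from 3 NCT-503 samples and 3 DMSO samples, all grown in DME/F-12 medium with 10% fetal bovine serum, was hybridised to 6 Affymetrix whole-transcript arrays, 1 per sample. The design text calls the samples independent without saying whether each was its own culture, and the p-values therefore rest on sample-to-sample spread that may be technical. All samples come from 1 cell line, and no other line or dose was analysed here.

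Levels are the deposited log2 values, and a change is the mean of the 3 NCT-503 arrays less that of the 3 DMSO arrays, followed by its standard error (SE) as limma gives it. A gene was called at a Benjamini-Hochberg adjusted p under 0.05 in limma over all 14779 genes. In such whole-cell RNA, fewer cells with a transcript and less transcript per cell cannot be told apart. Levels of different members were not compared as amounts of transcript, because each gene is read by its own probes. Levels across genes or rows served only to choose rows, to filter, to call genes dim and to take medians or means over gene lists.

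ZNF genes encode C2H2 zinc finger proteins, in which each finger is folded around a zinc ion and reads a few bases of DNA. Many of those on chromosome 19 also carry a KRAB domain, which recruits the co-repressor TRIM28 and, through it, enzymes and binding proteins of silent chromatin. Many KRAB zinc finger proteins bind transposable elements. The genes arose by repeated tandem duplication and stand in clusters on both arms of the chromosome. Neighbours are therefore often close paralogs, and array probes may not separate all of them.

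The main change was a fall. With NCT-503, 103 of the 225 genes (45.8%) were called lower and 24 (10.7%) were called higher, while 98 were not called. Over all 14779 genes tested, 17.1% were called lower and 16.4% higher; centring by the 75th percentile turned these calls over all genes into 2189 lower and 3345 higher. The members' median change was -0.29, against 0.06 over all genes. At least 2-fold falls were called in 28 members (12.4%), against 3.2% of all genes. At least 2-fold rises were called in 2 of the 225 members, ZNF433 and ZNF581, against 157 of all 14779 genes, a like share. The 98 members not called had changes between -0.73 (ZNF347) and 0.53 (ZNF524), with a median of -0.06. Without regard to calls, in 115 members (51.1%) all 3 NCT-503 arrays lay below all 3 DMSO arrays, which was so for 22.4% of all genes. The middle 50% of member changes lay between -0.71 and 0.05. The median level over the 225 genes was 5.31, 5.37 and 5.36 in the NCT-503 arrays and 5.80, 5.81 and 5.81 in the DMSO arrays.

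Other genes of the same chromosome had mostly higher calls. The 709 other protein-coding genes of chromosome 19 had a median change of 0.16, with 171 (24.1%) called higher and 49 (6.91%) called lower. That count of lower genes was 32 without DMSO a and 31 without DMSO c. ZNF genes on other chromosomes were closer to the members. Of 242, 93 (38.4%) were called lower and 28 (11.6%) higher, with a median of -0.18, and the higher count was 18 without DMSO a. No test of the difference between these gene sets was made, so the shares are a description. The members' median stayed below 0 under each other scaling of the arrays (centred by the median or the 75th percentile, or quantile-normalised), between -0.23 and -0.25.

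**Figure D1:**
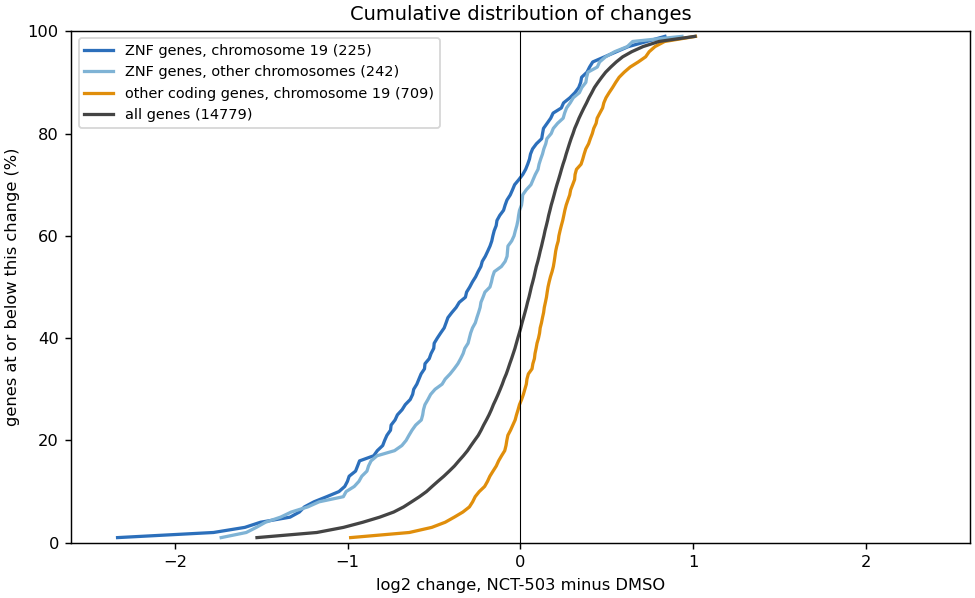
Cumulative distribution of log2 changes (x axis, NCT-503 minus DMSO) in percent of genes at or below each change (y axis), for the 225 ZNF genes of chromosome 19, the 242 ZNF genes elsewhere, the 709 other coding genes of chromosome 19 and all 14779 genes, drawn from percentiles 1 to 99. The line of the 225 members crosses its midpoint at -0.29, and that of the other chromosome 19 genes at 0.16.

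Placed in the order of the RefSeq table, the members formed 16 runs, a run being members whose starts follow each other within 1 Mb. Runs are named by band for reference only. They can cross bands, so a run's name need not hold for each of its members. Of these runs, 6 held at least 20 members and together 191 of the 225 genes, and 5 were single genes. The short arm carried 74 members, of which 27 (36.5%) were lower and 11 (14.9%) higher. The long arm carried 151, of which 76 (50.3%) were lower and 13 (8.61%) higher. The median change was -0.17 on the short arm and -0.40 on the long arm. Lower calls were above the 17.1% of all genes in each of the 6 large runs, but in the inner 19p13.2 run only barely (4 of 23, 17.4%).

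**Figure D2:**
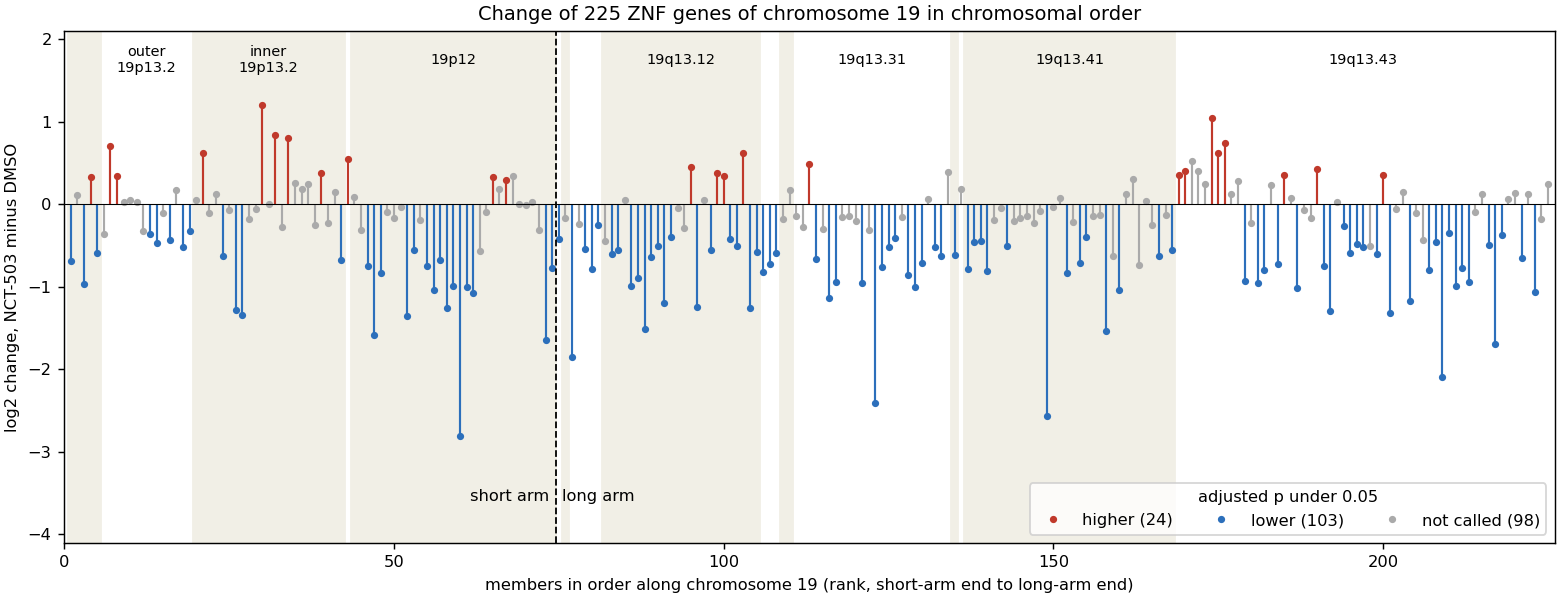
Log2 change of each of the 225 ZNF genes (y axis, NCT-503 minus DMSO) by rank along chromosome 19 (x axis), with alternate shading for runs and a dashed line between the arms. Colours mark 103 genes called lower, 24 called higher and 98 not called; falls occur in every run of at least 5 genes, and the 2 rises above 1 belong to ZNF433 and ZNF581.

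**Figure D3:**
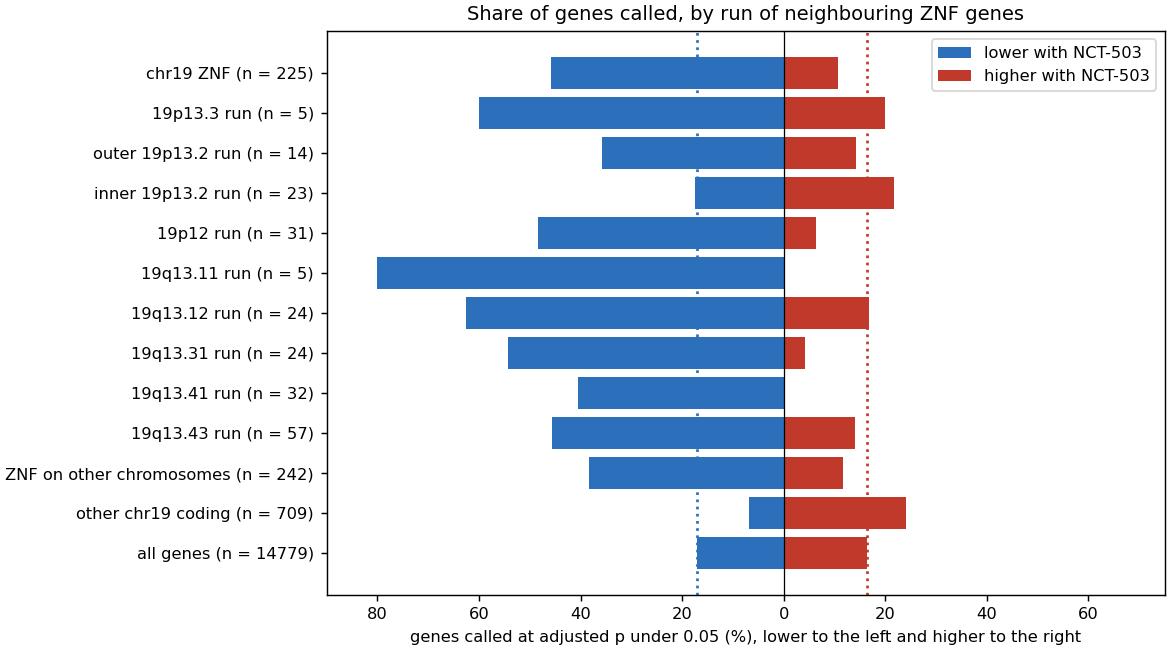
Percent of genes called lower (left of 0) and higher (right of 0) in each run of at least 5 members, in all 225 members and in 3 comparison sets; dotted lines mark the 17.1% and 16.4% of all genes. The 19q13.12 run reaches 62.5% lower, whereas the inner 19p13.2 run has 17.4% lower and 21.7% higher.

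The largest fall was that of ZNF429, in the 19p12 run. Its level was 3.90, 3.50 and 4.03 in the NCT-503 arrays, against 6.59, 6.80 and 6.47 in the DMSO arrays. The groups were well apart, and the gene fell by 2.81 ± 0.15 (SE, adjusted p = 4.62e-05). ZNF480, in the 19q13.41 run, had levels of 4.40, 4.93 and 4.62 in the NCT-503 arrays, against 7.14, 7.30 and 7.21 in the DMSO arrays. It fell by 2.57 ± 0.14 (SE, adjusted p = 4.44e-05), again with no overlap between groups.

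ZNF814, in the 19q13.43 run, read 5.76, 6.25 and 5.81 in the NCT-503 arrays, against 8.17, 7.99 and 7.93 in the DMSO arrays, and fell by 2.09 ± 0.14 (SE, adjusted p = 0.0001). ZNF302, in the 19q13.11 run, read 4.10, 4.49 and 3.58 in the NCT-503 arrays, against 5.80, 5.95 and 5.97 in the DMSO arrays. Its NCT-503 arrays were more spread than its DMSO arrays, yet all lay lower, and it fell by 1.85 ± 0.21 (SE, adjusted p = 0.000702). ZNF544 read 5.15, 5.04 and 5.29 in the NCT-503 arrays, against 6.86, 6.78 and 6.93 in the DMSO arrays, a tight pair of groups, and fell by 1.70 ± 0.09 (SE, adjusted p = 4.62e-05).

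The rest of the 12 largest falls were ZNF224, ZNF681, ZNF253, ZNF611, ZNF567, ZNF737 and ZNF69, with changes from -2.41 to -1.34. ZNF224 must be read apart from the others. The table held 2 rows for it, and the row with the higher mean, used here, read 5.58, 5.21 and 5.38 in the NCT-503 arrays, against 7.74, 8.04 and 7.62 in the DMSO arrays, a change of -2.41 (adjusted p = 5.61e-05). The other row gave a change of 0.13 with an adjusted p of 0.422, so the fall of ZNF224 rests on 1 of its 2 rows, and why they differ was not tested. ZNF57, in the 19p13.3 run, was the other member with 2 rows. Its chosen row rose by 0.33 (adjusted p = 0.0218), whereas the other row gave 0.05 (adjusted p = 0.839). The call was lost on the mean of both rows (adjusted p = 0.204) and without any 1 of NCT-503 a, NCT-503 c, DMSO a, DMSO b or DMSO c (adjusted p from 0.0533 to 0.0677).

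**Figure D4:**
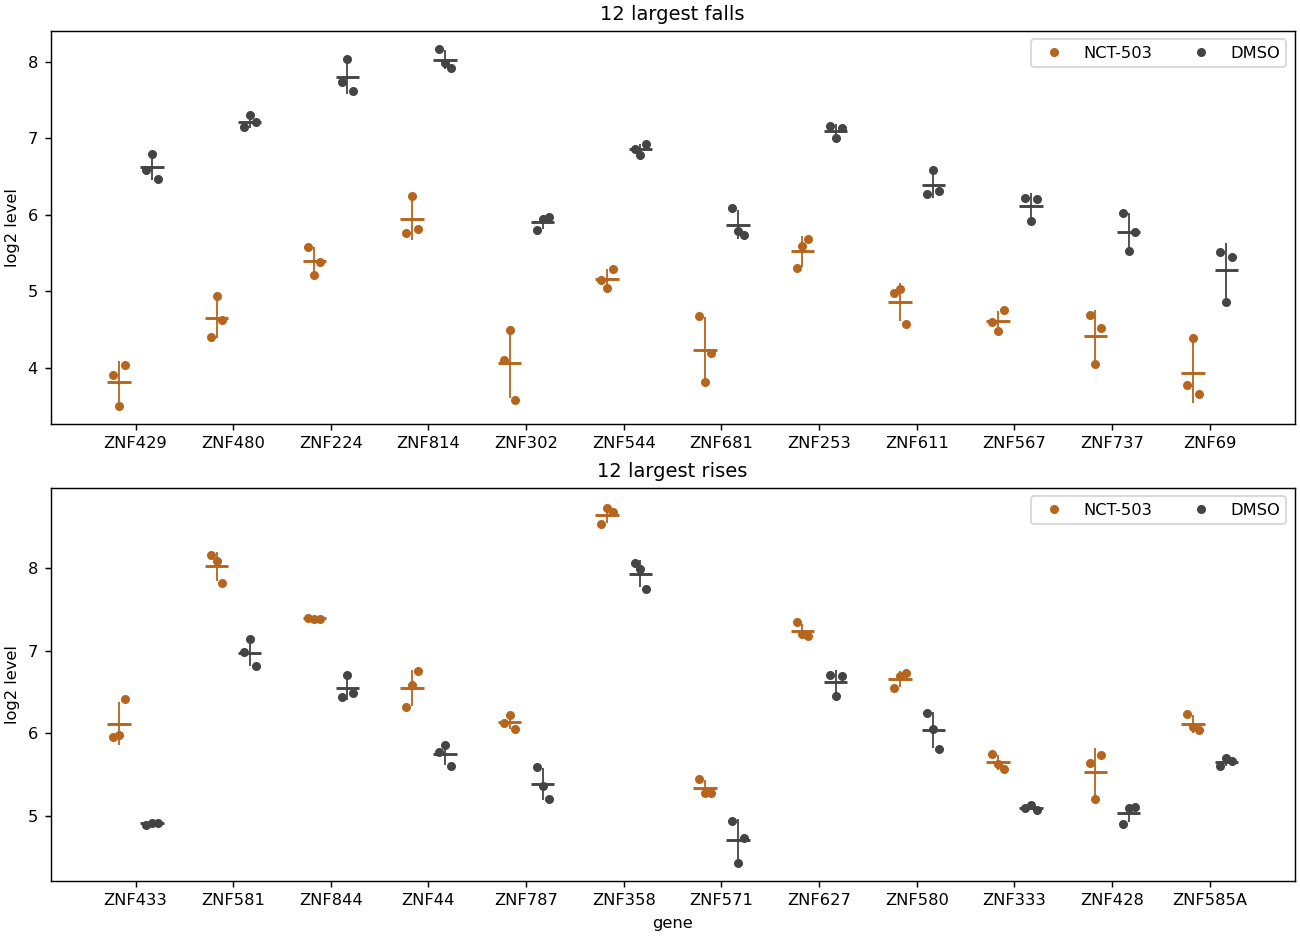
Log2 level in each array for the 12 members with the largest called falls (upper panel) and the 12 with the largest called rises (lower panel); points are arrays, NCT-503 left of DMSO for each gene, horizontal bars are means and vertical bars SDs (n = 3). The groups do not overlap in any of the 24 genes, which was a condition for showing them; ZNF224 rests on 1 of its 2 rows.

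Rises were smaller. ZNF433, in the inner 19p13.2 run, read 5.95, 5.98 and 6.41 in the NCT-503 arrays, against 4.89, 4.92 and 4.91 in the DMSO arrays. Its DMSO arrays were nearly equal, and it rose by 1.21 ± 0.13 (SE, adjusted p = 0.000544), a 2.31-fold increase. ZNF581, in the 19q13.43 run, read 8.15, 8.09 and 7.82 in the NCT-503 arrays, against 6.98, 7.13 and 6.81 in the DMSO arrays, and rose by 1.05 ± 0.12 (SE, adjusted p = 0.000789). ZNF844, close to ZNF433, read 7.39, 7.39 and 7.39 in the NCT-503 arrays, against 6.44, 6.70 and 6.49 in the DMSO arrays, with nearly equal NCT-503 arrays, and rose by 0.85 ± 0.09 (SE, adjusted p = 0.000524). The remaining large rises were ZNF44 (0.81), ZNF787 (0.75), ZNF358 (0.71), ZNF571 (0.63), ZNF627 (0.62), ZNF580 (0.62), ZNF333 (0.55), ZNF428 (0.49) and ZNF585A (0.46). ZNF428 lost its call without any 1 array other than NCT-503 b (adjusted p from 0.0715 to 0.117). ZNF358, ZNF428, ZNF580, ZNF581 and ZNF787 are known as zinc finger proteins without a KRAB domain, ZNF580 and ZNF581 being short proteins with few fingers. Other risers, and members lower or not called, are not described in this way, so no link of rises with the domain is shown. The files do not say which members carry a KRAB domain, so no count by KRAB domain was made.

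The promoters of the largest fall and the largest rise are printed to show their composition. ZNF429 lies at chr19:21505352-21505651, forward strand and ZNF433 at chr19:12035630-12035929, reverse strand, both in GRCh38.p14. Both are RefSeq sequences of 300 bases that span the gene start. Capitals mark the GC box GGGCGG, the only one of 7 motifs searched that was found in them, once in ZNF429 and 2 times in ZNF433. The GC content was 50.7% in ZNF429 and 61.3% in ZNF433, with 9 CpG pairs in ZNF429 and 22 in ZNF433.
ZNF429: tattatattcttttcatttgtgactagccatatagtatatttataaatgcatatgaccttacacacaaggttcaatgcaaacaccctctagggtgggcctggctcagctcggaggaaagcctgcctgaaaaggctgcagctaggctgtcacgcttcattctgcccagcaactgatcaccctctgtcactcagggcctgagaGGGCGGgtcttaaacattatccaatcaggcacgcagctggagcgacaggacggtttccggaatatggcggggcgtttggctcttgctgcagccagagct
ZNF433: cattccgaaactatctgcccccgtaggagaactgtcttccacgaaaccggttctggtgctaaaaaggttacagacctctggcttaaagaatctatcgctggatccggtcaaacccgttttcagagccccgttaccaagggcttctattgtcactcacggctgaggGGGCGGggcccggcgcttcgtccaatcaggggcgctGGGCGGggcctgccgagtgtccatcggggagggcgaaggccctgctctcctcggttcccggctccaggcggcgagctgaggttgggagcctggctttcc

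The 19p12 run held 31 members and had the lowest median of the 6 large runs, -0.55 (between -0.55 and -0.47 under the scalings tried). In it 15 (48.4%) were lower and 2 (6.45%) higher, ZNF98 (0.29) and ZNF676 (0.34), and 8 (25.8%) fell at least 2-fold. Over all genes 17.1% were lower, 16.4% higher and 3.2% lower by at least 2-fold. ZNF676 was dim, at 2.496 to 2.601 in the NCT-503 arrays and 2.202 to 2.245 in the DMSO arrays. The median of all values was 4.30 to 4.33 per array. The 8 neighbours ZNF430, ZNF714, ZNF431, ZNF708, ZNF493, ZNF429, ZNF100 and ZNF43 were all called lower, the longest unbroken stretch on the chromosome. ZNF681 fell by 1.65 ± 0.21 (SE, adjusted p = 0.00122) and ZNF253 fell by 1.58 ± 0.12 (SE, adjusted p = 0.000125). ZNF737 fell by 1.36. ZNF93, whose protein restrains LINE-1 elements, read 6.15, 6.23 and 5.85 in the NCT-503 arrays, against 6.70, 7.07 and 6.96 in the DMSO arrays, and fell by 0.83 ± 0.14 (SE, adjusted p = 0.00323). ZNF91, whose protein restrains SVA elements, read 5.54, 5.90 and 6.08 in the NCT-503 arrays, against 5.86, 5.78 and 5.80 in the DMSO arrays. Its groups overlapped, and its change was 0.03 (adjusted p = 0.892).

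The inner 19p13.2 run differed from the other large runs in its counts and had a median of 0.01. Of its 23 members 5 (21.7%) were higher, 4 (17.4%) lower and 14 not called. These shares lay near those of all genes, 16.4% higher and 17.1% lower. The rises were ZNF433, ZNF844, ZNF44, ZNF627 and ZNF709 (0.39). ZNF44 read 6.32, 6.58 and 6.75 in the NCT-503 arrays, against 5.77, 5.86 and 5.60 in the DMSO arrays, and rose by 0.81 ± 0.13 (SE, adjusted p = 0.00289). The falls were ZNF69, ZNF439, ZNF791 and ZNF491. ZNF69 fell by 1.34 ± 0.24 (SE, adjusted p = 0.00479) and its neighbour ZNF439 fell by 1.27 ± 0.15 (SE, adjusted p = 0.000892), so the largest falls and the largest rises of this run lay a few genes apart.

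Nearer the end of the short arm, the outer 19p13.2 run had 5 of 14 members (35.7%) lower and 2 (14.3%) higher, ZNF358 and ZNF414. Over all genes 17.1% were lower and 16.4% higher, so the share of higher calls lay near that of all genes. ZNF358 read 8.53, 8.73 and 8.68 in the NCT-503 arrays, against 8.06, 7.99 and 7.75 in the DMSO arrays, and rose by 0.71 ± 0.11 (SE, adjusted p = 0.00225). ZNF562 fell by 0.51 ± 0.08 (SE, adjusted p = 0.00335). ZNF121, whose protein is known as a partner of MYC, read 9.36, 9.49 and 9.50 in the NCT-503 arrays, against 9.93, 9.82 and 9.88 in the DMSO arrays, and fell by 0.43 ± 0.08 (SE, adjusted p = 0.00583). ZNF558, a repressor of the mitophagy gene SPATA18, had a change of 0.03 (adjusted p = 0.863). ZNF557, just outside the threshold, had a change of -0.36 (adjusted p = 0.0579). In the 19p13.3 run 3 of 5 fell, ZNF556, ZNF554 and ZNF77, and ZNF57 rose with the limits given above. ZNF554 fell by 0.69 ± 0.14 (SE, adjusted p = 0.00977). ZNF556 fell by 0.96, a call lost without DMSO a, DMSO b or DMSO c (adjusted p from 0.066 to 0.0891) and on quantile-normalised arrays (adjusted p = 0.0532). ZNF333, alone at 19p13.12, rose by 0.55.

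On the long arm, the 19q13.12 run had the highest share of lower calls among the 6 large runs, 15 of 24 (62.5%), beside 4 (16.7%) higher. Over all genes 17.1% were lower and 16.4% higher, so the share of higher calls lay near that of all genes. The 7 neighbours ZNF382, ZNF461, ZNF567, ZNF850, ZNF790, ZNF345 and ZNF829 were all called lower. ZNF567 fell by 1.50 ± 0.12 (SE, adjusted p = 0.000147) and ZNF607 fell by 1.25 ± 0.12 (SE, adjusted p = 0.000298). ZNF382, described as a tumour suppressor silenced by promoter methylation, read 5.09, 5.40 and 5.37 in the NCT-503 arrays, against 6.13, 6.42 and 6.26 in the DMSO arrays, and fell by 0.99 ± 0.12 (SE, adjusted p = 0.000837). The rises were ZNF571, ZNF585A, ZNF569 (0.39) and ZNF570 (0.35), and the call of ZNF570 was lost without any 1 array other than NCT-503 c (adjusted p from 0.0658 to 0.131). ZNF565 lay just outside the threshold, with a change of -0.44 (adjusted p = 0.0575). ZNF420, a repressor of p53 also called APAK, had a change of -0.28 (adjusted p = 0.134). ZNF568, whose mouse counterpart silences a placental promoter of Igf2, had a change of -0.04 (adjusted p = 0.802).

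ZNF585A and ZNF585B, neighbouring paralogs of the 19q13.12 run, went opposite ways. ZNF585A read 6.23, 6.07 and 6.03 in the NCT-503 arrays, against 5.59, 5.70 and 5.67 in the DMSO arrays, and rose by 0.46 ± 0.08 (SE, adjusted p = 0.00545). ZNF585B read 3.58, 3.59 and 3.50 in the NCT-503 arrays, against 5.13, 4.26 and 5.01 in the DMSO arrays, and fell by 1.24 ± 0.21 (SE, adjusted p = 0.00412). Since the pair shares much of its sequence, their promoters are printed to show how alike the starts of oppositely moving genes can be. The 300 bases around the RefSeq start of each (GRCh38.p14) could be aligned with 73.4% identical columns. ZNF585A lies at chr19:37172646-37172945, reverse strand, and ZNF585B at chr19:37210487-37210786, reverse strand. Capitals mark motif matches, CCGGAAG (ETS core) in both and AAGATGGC (YY1 core) in ZNF585B.
ZNF585A: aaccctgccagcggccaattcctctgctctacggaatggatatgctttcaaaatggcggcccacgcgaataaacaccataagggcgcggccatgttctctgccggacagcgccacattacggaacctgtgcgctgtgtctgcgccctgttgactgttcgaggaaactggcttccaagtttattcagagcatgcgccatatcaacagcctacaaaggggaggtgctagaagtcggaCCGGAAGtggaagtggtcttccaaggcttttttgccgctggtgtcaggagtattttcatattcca
ZNF585B: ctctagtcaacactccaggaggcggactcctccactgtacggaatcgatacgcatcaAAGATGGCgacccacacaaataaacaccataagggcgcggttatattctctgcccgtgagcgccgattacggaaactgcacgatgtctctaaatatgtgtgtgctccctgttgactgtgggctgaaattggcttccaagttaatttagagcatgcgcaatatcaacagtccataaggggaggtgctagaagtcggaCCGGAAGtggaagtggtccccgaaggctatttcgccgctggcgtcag

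Smaller runs of the long arm had mostly lower calls, against 17.1% lower over all genes. In the 19q13.11 run 4 of 5 members were lower, among them ZNF302 and ZNF30, which fell by 0.78. In the first 19q13.2 run all 3, ZNF546, ZNF780B and ZNF780A, were lower. ZNF780B read 6.36, 6.35 and 6.36 in the NCT-503 arrays, against 7.09, 7.07 and 7.08 in the DMSO arrays, with nearly equal arrays in each group, and fell by 0.72 ± 0.07 (SE, adjusted p = 0.000299). ZNF546 fell by 0.82 ± 0.12 (SE, adjusted p = 0.00208). The second 19q13.2 run, ZNF574 and ZNF526, had no call by limma, none at an unadjusted p under 0.05 and none with limma's trend and robust settings, another way of pooling the spread. ZNF536, a brain-expressed gene alone at 19q12 whose product held back neuronal differentiation in mouse cells, read 6.96, 6.97 and 6.83 in the NCT-503 arrays, against 7.28, 7.38 and 7.36 in the DMSO arrays, and fell by 0.42 ± 0.08 (SE, adjusted p = 0.006).

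The 19q13.31 run had 13 of 24 members (54.2%) lower and 1 (4.17%) higher, ZNF428, with a median of -0.46. Among all genes 17.1% were lower and 16.4% higher. ZNF45 read 5.30, 5.29 and 5.21 in the NCT-503 arrays, against 6.41, 6.39 and 6.39 in the DMSO arrays, both groups being tight, and fell by 1.13 ± 0.07 (SE, adjusted p = 7.5e-05). ZNF235 fell by 1.00, ZNF223 fell by 0.95 and ZNF221 fell by 0.94. ZNF224, known as a repressor of the glycolytic gene ALDOA, lies in this run among paralogs, and the caution on its 2 rows applies. Farther out, ZNF114 fell by 0.61 (call lost without DMSO b, adjusted p = 0.0537), and ZNF473, which acts in processing of histone transcripts, had a change of 0.18 (adjusted p = 0.238).

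In the 19q13.41 run 13 of 32 members (40.6%) were lower and none was higher by limma, at an unadjusted p under 0.05 or with trend and robust settings. Of all genes 17.1% were lower and 16.4% higher by limma. Of the 32 changes, 28 were below 0. ZNF480 and ZNF611 led it, and ZNF611 fell by 1.53 ± 0.14 (SE, adjusted p = 0.000314). ZNF331, a gene rearranged in thyroid adenomas, read 5.82, 6.0 and 5.94 in the NCT-503 arrays, against 6.42, 6.51 and 6.49 in the DMSO arrays, and fell by 0.55 ± 0.08 (SE, adjusted p = 0.00193). ZNF350, also called ZBRK1 and known as a partner of BRCA1, read 5.63, 5.83 and 5.63 in the NCT-503 arrays, against 5.93, 5.91 and 5.83 in the DMSO arrays. The groups overlapped slightly, and its change was -0.19 (adjusted p = 0.138). ZNF578, at 0.71 below DMSO, was the member nearest the threshold (adjusted p = 0.0499), and its call was lost without any 1 array other than NCT-503 b (adjusted p from 0.0689 to 0.14) and after centring each array by its median (0.0585) or its 75th percentile (0.0663).

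The 19q13.43 run, at the end of the long arm, was the longest, with 26 of 57 members lower and 8 higher. The run's first members in chromosomal order, from ZNF628 to ZNF582, all had changes above 0. Of these ZNF628, ZNF579, ZNF581, ZNF580 and ZNF787 were called. This stretch was singled out after its values were seen. ZNF787 read 6.13, 6.21 and 6.05 in the NCT-503 arrays, against 5.59, 5.36 and 5.21 in the DMSO arrays, and rose by 0.75 ± 0.11 (SE, adjusted p = 0.00223). ZNF524, next to them, had a change of 0.53 (adjusted p = 0.0542), just outside the threshold, and was called under each other scaling (adjusted p from 0.0295 to 0.0398). Farther along, the 7 neighbours from ZNF587B to ZNF606 were all lower, with the largest fall in ZNF814. ZNF551 fell by 1.31 ± 0.09 (SE, adjusted p = 9.59e-05) and ZNF749 fell by 1.29 ± 0.07 (SE, adjusted p = 4.7e-05).

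The 19q13.43 run also holds members with known targets. ZNF417 and ZNF587, close paralogs whose probes may not separate them and whose proteins silence HERV-K elements, fell by 0.35 and 0.46 on the log2 scale. ZNF417 read 6.77, 6.81 and 7.05 in the NCT-503 arrays, against 7.12, 7.23 and 7.32 in the DMSO arrays. ZNF587 read 5.52, 5.32 and 5.26 in the NCT-503 arrays, against 5.67, 5.81 and 5.999 in the DMSO arrays. Both calls were fragile. That of ZNF417 was lost without any 1 array other than NCT-503 c (adjusted p from 0.0508 to 0.112) and under each other scaling of the arrays (adjusted p from 0.0581 to 0.0884). That of ZNF587 was lost without NCT-503 b, NCT-503 c or DMSO c (adjusted p from 0.0572 to 0.0594).

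ZNF274, whose protein brings the histone methyltransferase SETDB1 to the 3′ ends of ZNF genes themselves, read 5.48, 5.66 and 5.22 in the NCT-503 arrays, against 6.06, 5.68 and 6.08 in the DMSO arrays. Its highest NCT-503 array lay only just below its lowest DMSO array, and it fell by 0.49 ± 0.15 (SE, adjusted p = 0.0434). This call was lost without NCT-503 a, NCT-503 c, DMSO a or DMSO c (adjusted p from 0.0904 to 0.125) and under each other scaling (adjusted p from 0.0549 to 0.0873). ZNF154 and ZNF671, whose promoters are often methylated in tumours, had changes of -0.05 (adjusted p = 0.825) and 0.16 (adjusted p = 0.332). Of the 17 members listed for a known role, 9 were called lower and none higher by limma, with a median of -0.35; none was higher at an unadjusted p under 0.05 or with trend and robust settings, and the 9 include ZNF224, ZNF274, ZNF417 and ZNF587, whose limits are given above. Of all 225 members 45.8% were lower and 10.7% higher, and of all genes 17.1% and 16.4%, so the count shows nothing particular to the role list.

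Calls of neighbouring members were mixed. Over 209 adjacent pairs within runs, 51 were both lower and 5 both higher, while 12 were called in opposite directions. Besides ZNF585A and ZNF585B, these included ZNF571 beside ZNF607, ZNF211 beside ZNF551 and ZNF548 beside ZNF17. ZNF211 rose by 0.36, whereas ZNF551, next to it, fell by 1.31. The Pearson correlation of the changes of adjacent members was 0.20 over the 209 pairs, which share the same 6 arrays and may share probes.

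In the runs of at least 5 members, 82 further protein-coding genes that were tested lay between the outermost members. Of the 71 without a zinc finger symbol, 19 were higher and 2 lower, HNRNPM and SRRM5. Of the 627 other coding genes of the chromosome outside the runs of at least 5 members 24.2% were higher and 6.7% lower. Of all genes 16.4% were higher and 17.1% lower. The 19 higher genes were unevenly spread. Of the 82 genes, the outer 19p13.2 run held 30 with 9 higher and the 19q13.31 run 17 with 7 higher, against 1 of 8 in the 19q13.41 run and 1 of 22 in the 19q13.43 run. HNRNPM, which encodes a splicing regulator, fell by 1.16 ± 0.08 (SE, adjusted p = 8.57e-05). The 11 with a symbol beginning ZFP, ZIK or ZSCAN, which encode zinc finger proteins too, had 5 lower and none higher by limma, with 1 higher at an unadjusted p under 0.05 and none with trend and robust settings. The 5 lower genes were ZFP14, ZFP82, ZIK1, ZSCAN22 and ZSCAN5A. ZIK1 read 5.82, 5.82 and 5.56 in the NCT-503 arrays, against 6.65, 6.84 and 6.70 in the DMSO arrays, and fell by 1.00 ± 0.10 (SE, adjusted p = 0.000453). The median change was 0.15 for the 71 genes and -0.31 for the 11. These groups were formed after earlier results were known, and their difference was not tested.

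Gene span and promoter composition were compared with the changes as properties that the choice of members did not use. RefSeq spans had a median of 24.2 kb in lower members, 20.9 kb in higher members and 22.4 kb in members not called. The correlation of change with the logarithm of span was -0.19 over the 225 members and -0.15 over 11891 coding genes. A RefSeq promoter of 300 bases around the gene start was at hand for 198 members. Its median GC content was 58.3% in 93 lower members, 62.7% in 20 higher members and 61.0% in 85 members not called. The correlation of change with promoter GC was 0.26 over the 198 members and 0.00 over 9690 coding genes. These correlations are across genes of the same arrays and are given as descriptions. Lower members lay on the forward strand in 54 of 93 cases and higher members in 11 of 20.

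Of the 7 motifs searched, the one whose share differed most in percentage points from coding genes at large was the ETS core CCGGAAG. It is the site read by ETS-family factors. Searched on both strands, it was in 87 of 198 member promoters (43.9%), against 15.6% of the 9690 coding promoters. It was in 49.5% of lower, 35.0% of higher and 40.0% of uncalled members. The GC box GGGCGG was in 58.1% of lower, 80.0% of higher and 71.8% of uncalled members, against 62.9% of coding promoters. The YY1 core AAGATGGC was in 7.07% of member promoters, against 4.34% of coding promoters. The E-box CACGTG was less common in members (4.55%) than in coding promoters (9.11%). The composite element TGATGNAA, read by C/EBP-ATF dimers, was in 2.02% of member and 2.12% of coding promoters. The E2F motif TTTCCCGC was in 0.505% of member and 2.28% of coding promoters, and the ZNF143 core ACTACAAT in 1.52% of member and 0.702% of coding promoters. No motif contains another, and a match is a description of the sequence, not of binding.

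**Figure D5:**
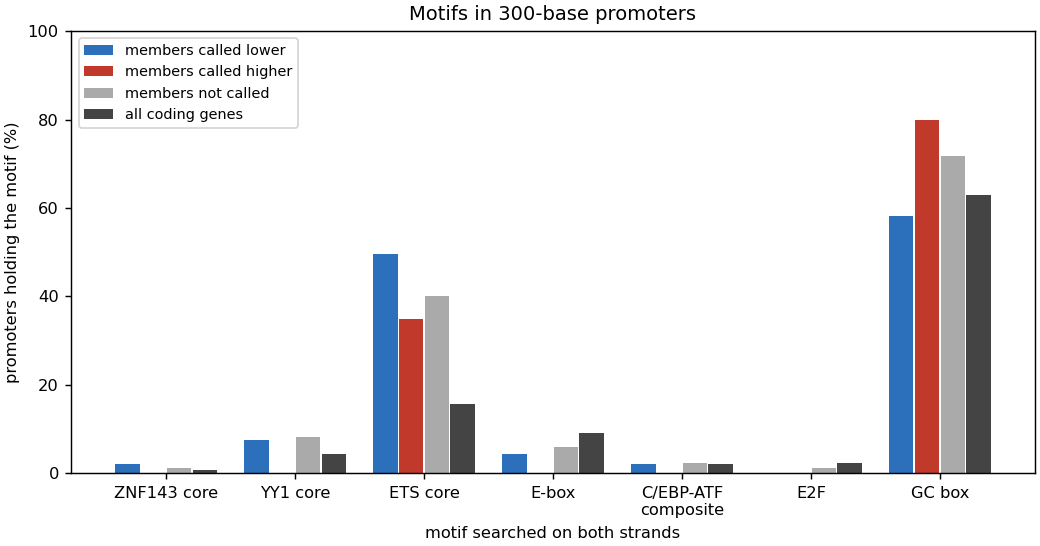
Percent of 300-base promoters that hold each of 7 motifs on either strand, for 93 lower, 20 higher and 85 uncalled members and for 9690 coding genes. The ETS core stands at 49.5%, 35.0% and 40.0% in the members and at 15.6% in coding genes; the GC box at 58.1%, 80.0% and 71.8%, and 62.9%.

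KRAB zinc finger proteins act through partners, and of a list of 34 such co-repressor and heterochromatin genes 28 were analysed here. Of these, 10 were lower and 3 higher, with a median of -0.16, where 17.1% of all genes were lower and 16.4% higher, with a median of 0.06. TRIM28, the scaffold that KRAB domains bind, read 7.87, 7.86 and 7.71 in the NCT-503 arrays, against 8.16, 8.10 and 8.004 in the DMSO arrays. The groups lay close without overlap, and it fell by 0.28 ± 0.09 (SE, adjusted p = 0.0416). Among the list's 10 lower genes TRIM28 had the highest adjusted p. Whenever 1 array was left out, or arrays were centred by the median or the 75th percentile, 9 of the list were lower. Which call was lost is not given here. The falls were led by UHRF1, which guides maintenance DNA methylation and fell by 1.36 ± 0.08 (SE, adjusted p = 6.71e-05), and MPHOSPH8, a subunit of the HUSH silencing complex, which fell by 0.95 ± 0.10 (SE, adjusted p = 0.000419). The HUSH partners PPHLN1 and MORC2 fell by 0.43 and 0.35, the heterochromatin protein CBX5 fell by 0.63, and its relatives CBX1 and CBX3 had changes of -0.02 (adjusted p = 0.891) and -0.01 (adjusted p = 0.951).

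Among chromatin-modifying enzymes of the list, SUV39H2 fell by 0.70, DNMT3B fell by 0.59, DNMT1 fell by 0.56 and EHMT1 fell by 0.48. The 3 rises were EHMT2, HDAC2 and SUMO2, by 0.43, 0.30 and 0.31, and only 1 rise was called without NCT-503 a or without DMSO c.

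Medians of the 31135 values of each array were 4.30 to 4.33. The 75th percentiles did not overlap, at 6.03 to 6.08 in NCT-503 arrays and 6.16 to 6.19 in DMSO arrays, and the counts with arrays centred by it are given in the closing section. The Pearson correlation of 2 arrays was 0.990 to 0.993 in the same group and 0.971 to 0.972 across groups. The cell line's label was set against 10 adrenergic neuroblastoma markers, of which 8 were analysed here. Their mean level was 8.63 to 8.75 in NCT-503 arrays and 8.71 to 8.82 in DMSO arrays, with DBH, GATA3 and PHOX2A higher and CHGA, HAND2 and ISL1 lower. Of 6 mesenchymal-state markers analysed VIM (1.12), SNAI2 (1.07) and PRRX1 (0.39) rose, while CD44 (0.20), YAP1 (0.09) and FN1 (-0.17) were not called. The list's mean level was 5.51 to 5.59 in NCT-503 arrays and 5.06 to 5.12 in DMSO arrays. PRRX1 and YAP1 were dim, below the array medians of 4.30 to 4.33, and levels could not be set against background. The part of these marker changes in the changes of ZNF genes was not tested.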

How the data were processed

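RNA of 6 BE(2)-C samples (3 NCT-503, 3 DMSO) was measured on Affymetrix arrays. The authors deposited log2 expression values, for which the submitters' processing notes name Partek. How values were normalized, background-corrected and summarised, and with which version, are not given in sources used here. That the scale is log2 was taken from the values (0.578 to 13.6, none missing). No scanner files were used, so levels could not be set against background, and folds of dim genes may be understated. The number of arrays limits the precision: members had a median SE of 0.117.

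Of 31135 rows, 15098 carried 1 gene symbol, none several, and 16037 were unnamed here. The row with the highest mean was kept for each of 14779 genes. The test was limma 3.58.1, run in R 4.3.3 (1 linear model over both groups, eBayes without trend, two-sided, Benjamini-Hochberg over 14779 genes). Members and lists were chosen with earlier results of these data known.

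Named members were the 12 largest called rises and falls whose groups do not overlap, the 2 largest called changes per run, 17 genes with known roles, the 3 nearest the threshold on each side, members with several rows, and called co-repressors; others complete small counts or stretches and were named after their values were seen. Bands are from general knowledge of chromosome 19, and RefSeq order served only for neighbours. Promoters are RefSeq's. The planned protein sequences were not used here. The fit was tested on simulated data. Alternatives are listed in the closing section; of these, the fit on protein-coding genes was chosen after seeing the data.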

Additional observations from a re-analysis of the deposited data

How the results depend on the processing

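Lower members outnumbered higher members under all 15 alternatives: trend and robust eBayes, a replicate block, 3 other scalings, a filter at the 25th percentile of mean level (209 members left), the mean of a gene's rows, an adjusted p under 0.01, leaving out each array, and protein-coding genes alone. Centred by the 75th percentile, which differed between the groups, 92 members were lower and 30 higher. Lower members ranged from 72 (adjusted p under 0.01) to 110 (trend and robust). Of 103 lower and 24 higher members, 72 and 11 were called in the same direction under all 15. At an adjusted p under 0.01, limma's higher counts were 11 members, 14 ZNF genes elsewhere, 88 other chromosome 19 genes (26 lower) and 0 co-repressors. That count of 0 is limma's, against 3 at an adjusted p under 0.05, 4 at an unadjusted p under 0.05 and 5 with trend and robust settings.

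Without 1 array, higher ZNF genes elsewhere numbered 18 to 23, other chromosome 19 genes called lower 31 to 40, and higher co-repressors 1 to 2. With the replicate block, taking the letters a, b and c as pairs, 91 members were lower and 22 higher, and ZNF274, ZNF428, ZNF570, ZNF578 and ZNF587 lost their calls. Same-lettered arrays deviated with correlations of 0.003 to 0.037, and not every array correlated best with its own letter, so the letters were not taken to pair samples. ZNF224 had a change of 0.132 on its other row, against -2.41. Over 56 named members, 841 alternative values gave 62 lost calls, 15 gained calls, 12 sign changes of uncalled values and that 1 reversal. Causes were not tested.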
